A study of Mus musculus with 10 samples.

Results

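Laminins and integrins were taken by gene symbol from the deposited expression table. The rule took laminin chains (Lama, Lamb or Lamc and a number), integrin α subunits (Itga with a number, 1 letter or 2b) and integrin β subunits (Itgb and a number). It found 37 of the 18725 genes, of which 11 encode laminin chains and 26 encode integrin subunits. Levels did not enter the rule. The libraries came from the outer sulcus, an epithelial strip at the lateral side of the cochlear duct, taken with the spiral ligament below it. There were 5 euthyroid and 5 hypothyroid libraries, all from C57BL/6J mice at postnatal day 10. Dams of the hypothyroid group drank, from embryonic day 17 and on through lactation, water that held methimazole at 0.05%, sodium perchlorate monohydrate at 1.0% and sucrose at 5.0%. Those of the euthyroid group received vehicle. Methimazole inhibits thyroid peroxidase and perchlorate keeps iodide out of the gland, so the model acts on the whole animal and on the dam, not on 1 cell type. The study asked how a lack of thyroid hormone alters the development of the outer sulcus.

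Laminins are the cross-shaped trimers, each of an α, a β and a γ chain, that polymerise into the sheet on which a basement membrane is built. Integrins are cell surface dimers of an α and a β subunit that hold cells to laminin, collagen, fibronectin and other ligands and tie those ligands to the actin or keratin cytoskeleton. In the cochlea, basement membranes lie under the duct epithelium and around the capillaries of the stria vascularis and spiral ligament. The root cells of the outer sulcus send processes into the ligament.

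Euthyroid libraries held 19781921 to 20063961 estimated counts each, and hypothyroid ones 19298145 to 19407592. One label text speaks of femoral head cartilage at another age, but the inner ear genes Otor and Coch reached 5479 and 2868 CPM as euthyroid means. CPM is a count relative to the library size after TMM scaling, which adjusts for library composition. Cartilage markers were high too, with sums of 45723 to 52388 CPM in euthyroid libraries. Most of that sum came from the collagen genes Col2a1 and Col9a1, at 32367 and 13057 CPM as euthyroid means. The other markers of that list had euthyroid means from 0.418 CPM for Matn3 to 2693 CPM for Cnmd. Whether cartilage was part of the samples was not tested. The labels do not say whether each library was a separate animal, nor which dam it came from. The p-values thus speak of the spread between libraries alone, which may be technical, and dam and treatment cannot be told apart. In whole tissue, fewer cells of a type and less RNA per cell cannot be told apart either. Markers of cells beside the outer sulcus moved as well: osteoblast markers were lower in 6 of 6 and summed to 1016 to 1556 CPM in euthyroid and 32.1 to 57.9 CPM in hypothyroid libraries. Melanocyte markers were higher in 5 of 7 and lower in 2, with sums of 552 to 747 CPM in euthyroid and 935 to 1739.6 CPM in hypothyroid libraries. Hair cell markers were lower in 4 of 6 tested and higher in 1, with sums of 41.7 to 95.4 CPM in euthyroid and 32.1 to 41.8 CPM in hypothyroid libraries. Some of these markers passed the filter on low counts through 1 group only and had to differ, so their calls are a description. Over the euthyroid and hypothyroid libraries Slc26a5 had 641 and 0 counts, Ocm 2714 and 4, and Strc 409 and 8. Bglap had 7939 and 41, Mepe 2874 and 24, and Tyrp1 31 and 355. The part of the cells beside the outer sulcus in the results was not tested, and no listed marker was at 0 in every library.

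Of the 37 genes, 34 passed the filter on low counts and were tested. In the hypothyroid libraries 11 were higher, 19 were lower and 4 did not pass (edgeR's quasi-likelihood test, Benjamini-Hochberg adjusted p under 0.05 over all genes tested). That is 30 called of 34, beside 71.8% of all genes tested. Higher calls made up 37.7% and lower calls 34.1% of all genes tested. The median log2 fold change was -0.37 over the 34 and 0.037 over all genes tested. The groups did not overlap in 25 of the 34, beside 57.9% of all genes. Changes of at least 2-fold were seen in 4 higher and 7 lower members, where the share over all genes was 9.25% and 7.91%. Scaling bore on the balance: with library sizes alone 14 were higher and 15 lower, and the median over all genes moved to 0.30. Falls smaller than about that shift could therefore shrink to near 0 or reverse, and the members concerned are named below. The small positive changes of Itgb5 and Itgb2 stayed positive in every alternative, from 0.20 to 0.54 and from 0.17 to 0.53.

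**Figure D1:**
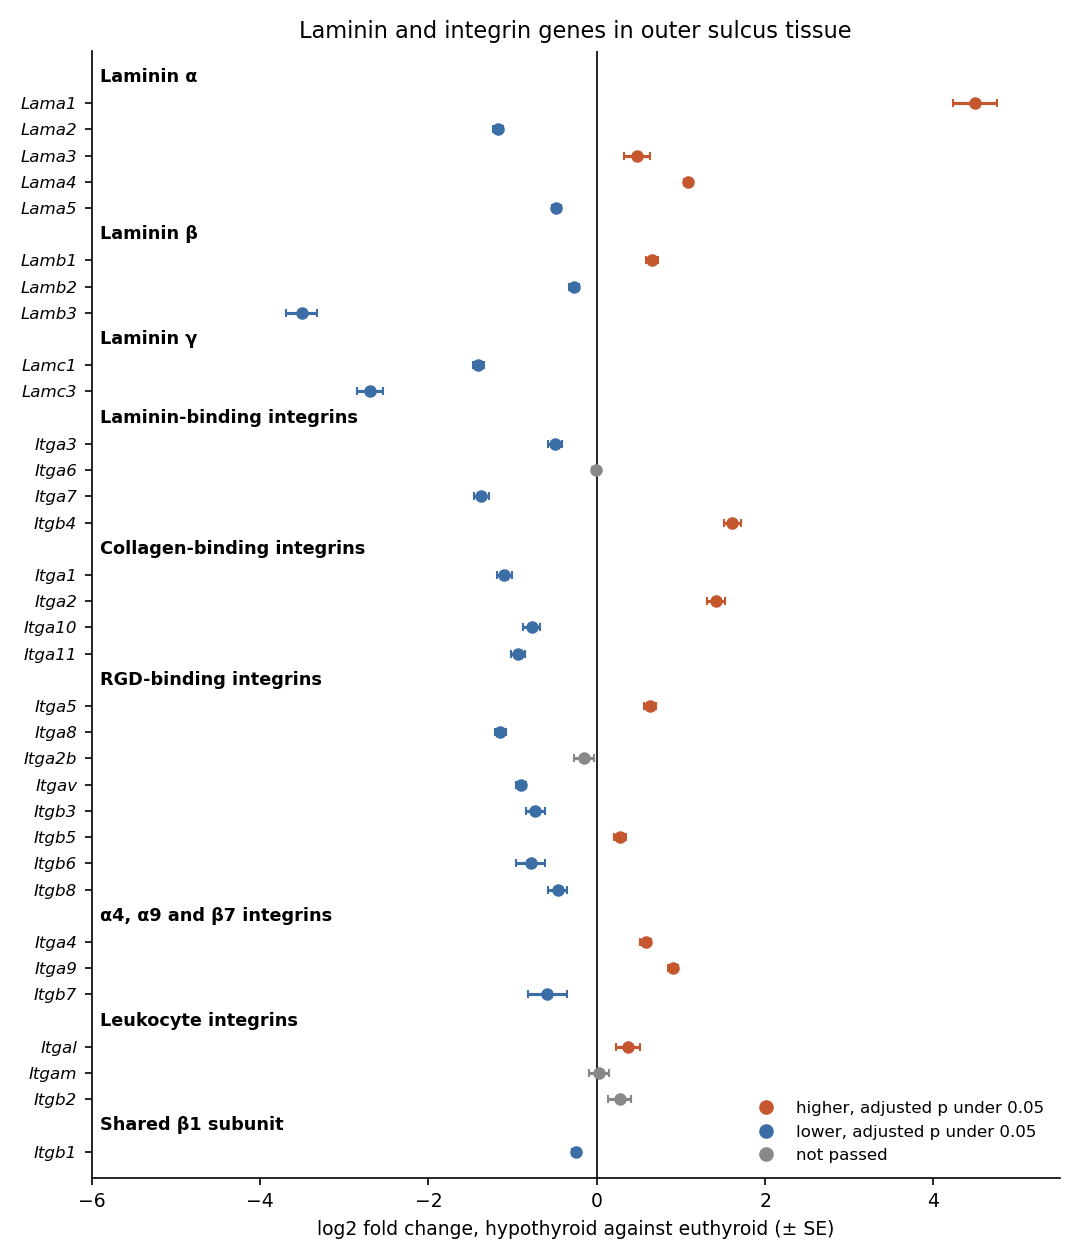
Log2 fold change with its approximate standard error for tested laminin and integrin genes, grouped by chain or by what the integrin binds (RGD: arginine-glycine-aspartate). Lamc1 and Lamc3 were lower, while the α chains, β chains and collagen-binding subunits went both ways, from -3.51 for Lamb3 to 4.49 for Lama1.

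The laminin α chains, which carry the domains that bind cell receptors, exchanged places. Lama1, Lama3 and Lama4 rose, and Lama2 and Lama5 fell. Lama1 encodes the α1 chain of early embryonic basement membranes and lies on chromosome 17 from 67697127 to 67822645 (GRCm38.p6, as for all positions here). Its level was 0.27, 0.754, 0.395, 0.282 and 0.665 CPM in euthyroid replicates 1 to 5 and 8.46, 14.03, 9.74, 8.22 and 13.6 CPM in hypothyroid replicates 1 to 5. The gene was close to absent in every euthyroid library, with 43 counts over all 5, and every hypothyroid library lay several-fold above the highest of them. From 0.473 ± 0.224 CPM to 10.8 ± 2.81 CPM (SD, n = 5 each) this was a 22.5-fold rise (log2 fold change 4.49 with SE 0.26, edgeR adjusted p = 1.58e-09). Lama1 passed the count filter only because of the hypothyroid libraries, and a gene that passes in that way has to differ, so its call is given as a description.

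Lama4, the α4 chain of vessel and mesenchymal basement membranes, was the most abundant α chain by mean TPM (a transcript level per gene length) over all libraries. It had 109, 106, 113, 109.6 and 116 CPM in the euthyroid and 243, 223, 243, 215 and 249 CPM in the hypothyroid libraries. The groups lay far apart against a narrow spread, and the rise was 2.12-fold (log2 fold change 1.08 with SE 0.05, edgeR adjusted p = 4.6e-11). Lama2, the α2 chain found around muscle fibres and Schwann cells and in some mesenchyme, went the other way. It had 225, 224, 239, 253 and 227 CPM in the euthyroid and 105, 102, 101, 93.1 and 115 CPM in the hypothyroid libraries. No hypothyroid library came near a euthyroid one, and the gene fell 2.26-fold (log2 fold change -1.18 with SE 0.06, edgeR adjusted p = 8.19e-11). Lama2 and Lama4 both lie on chromosome 10, from 26981285 to 27617191 and from 38965515 to 39110188.

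Lama5, the widespread α5 chain of mature epithelial and vessel basement membranes, fell 1.4-fold from 166 ± 9.03 CPM to 119 ± 8.37 CPM (log2 fold change -0.48, edgeR adjusted p = 1.34e-06). Lama3, the α3 chain of epithelial laminin, was low in both groups and rose 1.39-fold from 3.27 ± 0.624 CPM to 4.56 ± 0.693 CPM (edgeR adjusted p = 0.0118), with overlap between the groups. Endothelial cells are a known source of the α4 and α5 chains. Of 10 endothelial markers 8 were lower, 1 was higher and 1 did not pass, and their summed level was 1135 to 1388 CPM in euthyroid and 799.6 to 899 CPM in hypothyroid libraries. Skeletal muscle markers, set beside Lama2, were near 0, with 6 of 8 too low to test and a summed level of 0.959 to 1.58 CPM in euthyroid and 2.53 to 3.66 CPM in hypothyroid libraries. Schwann and glial markers summed to 99.4 to 173 CPM in euthyroid and 116 to 151 CPM in hypothyroid libraries, which overlap, with 2 of 7 higher and 3 lower. The part of these cell types in the results was not tested.

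Among the β chains, Lamb1 rose, and Lamb3 fell more than any other member. Lamb1, the β1 chain shared by most laminins of early tissue, was the most abundant β chain by mean TPM and had 329.9, 319, 317, 316 and 335 CPM in the euthyroid and 516, 564, 533, 409.8 and 525 CPM in the hypothyroid libraries. Hypothyroid replicate 4 was the lowest of its group but still above every euthyroid library, and the rise was 1.58-fold (log2 fold change 0.66 with SE 0.07, edgeR adjusted p = 6.37e-07). Lamb3, the β3 chain of the laminin that anchors epithelia, lies on chromosome 1 from 193294353 to 193343878. Its level was 18.7, 21.1, 28.8, 26.03 and 22.1 CPM in the euthyroid and 1.36, 2.71, 1.59, 2.77 and 1.79 CPM in the hypothyroid libraries. The lowest euthyroid library was several-fold above the highest hypothyroid one, and the gene fell 11.4-fold (log2 fold change -3.51 with SE 0.18, edgeR adjusted p = 8.57e-10). Lamb2, the β2 chain of mature vessel, kidney and synaptic laminins, went from 263 ± 20.1 CPM to 219 ± 12.9 CPM (log2 fold change -0.27, edgeR adjusted p = 0.00063), and the groups overlapped. With library sizes alone the log2 fold change of Lamb2 was -0.00196 (adjusted p = 0.973), so that its call rested on the scaling. Markers of outer sulcus and root cells, set beside Lamb3, were lower in 6 of 8 and higher in 1, and summed to 8036 to 8778 CPM in euthyroid and 3303 to 3992 CPM in hypothyroid libraries. Epithelial markers were higher in 4 of 8 and lower in 2. They summed to 690.4 to 746 CPM in euthyroid and 742 to 873 CPM in hypothyroid libraries. The part of these cell types in the fall of Lamb3 was not tested.

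The γ chain genes Lamc1 and Lamc3 were lower. Lamc1, the γ1 chain that joins nearly all laminins, was the most abundant laminin gene by mean TPM in the euthyroid libraries, and in the hypothyroid ones Lamb1 was, at 239 against 179.5 TPM. Lamc1 had 1381, 1199, 1433, 1478 and 1364 CPM in the euthyroid and 529, 510.1, 518, 459.8 and 563 CPM in the hypothyroid libraries. The highest hypothyroid library was under the lowest euthyroid one by a wide margin, and the fall was 2.66-fold (log2 fold change -1.41 with SE 0.07, edgeR adjusted p = 5.2e-11). Lamc3, the γ3 chain, which has been found in nerve, retina and brain, had 100.01, 81.3, 84.5, 109 and 92.2 CPM in the euthyroid and 10.1, 19.6, 12.6, 16.1 and 13.8 CPM in the hypothyroid libraries. The spread within each group was small beside the gap between them, and the gene fell 6.48-fold (log2 fold change -2.70 with SE 0.16, edgeR adjusted p = 5.59e-08). Lamc1 lies on chromosome 1 from 153218922 to 153332786 and Lamc3 on chromosome 2 from 31887281 to 31949083. Fibrocyte markers of the spiral ligament, set beside Lamc1, were lower in 3 of 6 and higher in 2, and summed to 17389.9 to 20886 CPM in euthyroid and 10375 to 13117 CPM in hypothyroid libraries; their part in the fall of Lamc1 was not tested.

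**Figure D2:**
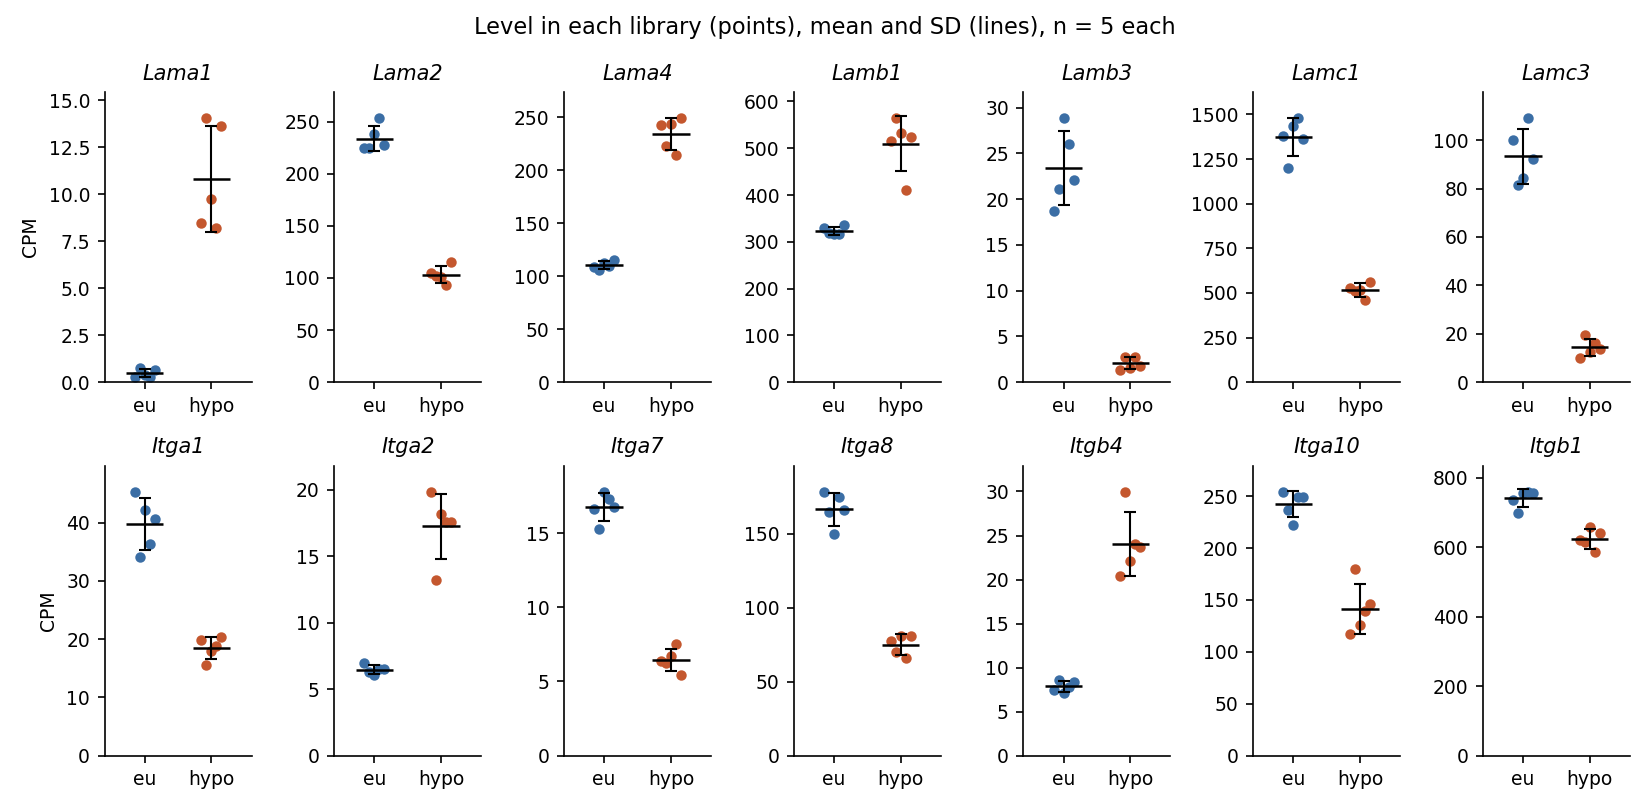
Level in CPM of 14 members in each of the 5 euthyroid (eu) and 5 hypothyroid (hypo) libraries, with the mean and SD; each panel has its own linear axis from 0. In all 14 the groups are apart, with Lama1, Lama4, Lamb1, Itga2 and Itgb4 higher in hypothyroid libraries and the other 9 lower; the gap is narrowest in Itgb1, whose difference was lost with library sizes alone.

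TPM allowed the chains to be set beside each other. The share of a chain in the summed TPM of its class is a ratio within a library and does not move with scaling between libraries. Lama4 went from 32.1% ± 1.03 to 63.01% ± 1.39 of the α chain TPM (SD, n = 5 each) and Lama2 from 41.7% ± 1.2 to 17.1% ± 0.469. In the euthyroid libraries Lama2 was thus the leading α chain, with 40.5% to 43.6% against 30.6% to 33.4% for Lama4, and in the hypothyroid ones Lama4 was, with 61.0% to 64.6% against 16.6% to 17.9%. Lama5 fell from 25.3% ± 0.608 to 16.8% ± 0.951, while Lama1 reached only 1.86% ± 0.435 despite its large fold change. Of the β chains, Lamb1 rose from 52.04% ± 2.37 to 69.4% ± 2.49, Lamb2 fell from 42.6% ± 1.71 to 30.2% ± 2.35 and Lamb3 from 5.32% ± 0.783 to 0.401% ± 0.15. Each of these 7 differences had an exact two-sided permutation p of 0.00794, the smallest that 252 splits allow. The adjusted permutation p was 0.0101 over the 19 shares computed. For Lama1, close to absent in the euthyroid libraries, it is a description. Shares of a class are tied to each other, so the differences are not separate results. Lamb2 itself had mean TPM of 106 and 103, so its share fell with little change in its own TPM. Within its class the share of Lamc1 was 79.99% ± 2.17 and 77.5% ± 1.47, which did not pass (exact permutation p = 0.0714), but passed without euthyroid replicate 2 (adjusted p = 0.0444).

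**Figure D3:**
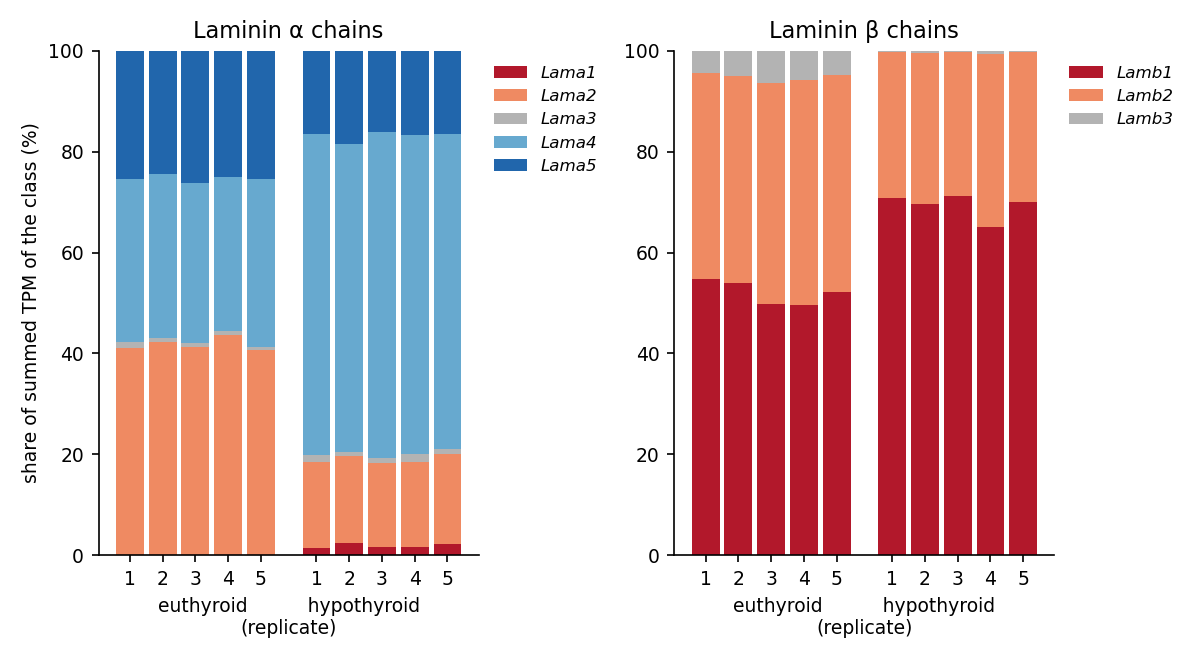
Share of each laminin α and β chain in the summed TPM of its class, in percent, for each library. Lama4 takes 61.0% to 64.6% of the α chain TPM in hypothyroid libraries against 30.6% to 33.4% in euthyroid ones, and Lamb1 grows from a mean of 52.04% to 69.4% of the β chain TPM.

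Of the 4 integrin subunits that serve as laminin receptors, Itgb4 rose, Itga3 and Itga7 fell and Itga6 did not pass. Itgb4 encodes the β4 subunit, which pairs with α6 alone and ties the epithelial cell to its basement membrane at hemidesmosomes. It had 7.4, 8.62, 7.17, 7.83 and 8.32 CPM in the euthyroid and 20.4, 29.96, 22.1, 24.00 and 23.7 CPM in the hypothyroid libraries. The groups were well apart, with hypothyroid replicate 2 the highest, and the rise was 3.05-fold (log2 fold change 1.61 with SE 0.10, edgeR adjusted p = 1.92e-09). Its partner Itga6 had 134 ± 3.21 and 132 ± 8.16 CPM (log2 fold change -0.016, edgeR adjusted p = 0.775), and with library sizes alone the value was 0.25 (adjusted p = 0.000116). By TPM, Itga6 stood at 51.5 ± 0.858 and 59.7 ± 3.86 TPM in the 2 groups and Itgb4 at 2.94 ± 0.268 and 10.6 ± 1.59 TPM, so the α6 transcript was in excess of β4 in both.

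Itga7, a laminin receptor of muscle and vessel wall, had 16.6, 15.2, 17.8, 17.3 and 16.7 CPM in the euthyroid and 6.41, 6.23, 6.7, 7.52 and 5.42 CPM in the hypothyroid libraries. Every hypothyroid library was under every euthyroid one, and the gene fell 2.59-fold (log2 fold change -1.37 with SE 0.09, edgeR adjusted p = 3.2e-09). Itga3, the α3 subunit of epithelia, fell 1.41-fold from 47.1 ± 2.35 CPM to 33.5 ± 4.84 CPM (log2 fold change -0.49, edgeR adjusted p = 7.56e-05). Epithelial markers, set beside Itgb4 and Itga3, summed to 690.4 to 746 CPM in euthyroid and 742 to 873 CPM in hypothyroid libraries, with 4 of 8 higher and 2 lower. Mural cell markers, set beside Itga7, were lower in 5 of 8 and higher in 1, and summed to 1317 to 1652 CPM in euthyroid and 675 to 752 CPM in hypothyroid libraries. The part of these cell types in the results was not tested.

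The collagen receptors split. Itga1, Itga10 and Itga11 fell and Itga2 rose. All 4 α subunits pair with β1: α1 and α2 are the receptors of vessels, fibroblasts and epithelia, α10 belongs to cartilage and α11 to mesenchyme. Itga1 had 45.3, 34.2, 42.2, 36.4 and 40.7 CPM in the euthyroid and 19.9, 15.6, 17.9, 18.9 and 20.4 CPM in the hypothyroid libraries, and Itga2 had 6.97, 6.3, 6.09, 6.48 and 6.49 and 19.8, 13.2, 18.1, 17.5 and 17.5 CPM. Neither gene's groups overlapped. Itga1 fell 2.14-fold (log2 fold change -1.10 with SE 0.09, edgeR adjusted p = 2.54e-08), and Itga2 rose 2.66-fold (log2 fold change 1.41 with SE 0.10, edgeR adjusted p = 1.07e-08). In the euthyroid libraries Itga1 was the more abundant of the pair by TPM, at 15.1 ± 1.67 against 2.06 ± 0.129, and in the hypothyroid ones the values were 8.24 ± 0.959 and 6.44 ± 0.95. The 2 genes are neighbours on the same strand of chromosome 13, Itga2 from 114833081 to 114932100 and Itga1 from 114958079 to 115101964. Only 26.0 kb and no protein-coding gene of RefSeq lie between them.

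The 250 bases before the start of each are shown because these neighbours moved in opposite directions, beside those of Itga5, a member that rose and holds a searched motif. They come from RefSeq on GRCm38.p6, minus strand, written 5′ to 3′: Itga1 at chr13:115101965-115102214, Itga2 at chr13:114932101-114932350 and Itga5 at chr15:103366792-103367041. Capitals mark CCGCCC, the reverse complement of the GC box GGGCGG.
Itga1: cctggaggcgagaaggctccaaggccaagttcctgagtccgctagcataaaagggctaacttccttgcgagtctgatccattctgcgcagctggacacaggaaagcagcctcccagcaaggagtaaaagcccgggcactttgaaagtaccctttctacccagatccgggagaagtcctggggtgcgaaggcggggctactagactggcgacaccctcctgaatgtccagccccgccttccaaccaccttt
Itga2: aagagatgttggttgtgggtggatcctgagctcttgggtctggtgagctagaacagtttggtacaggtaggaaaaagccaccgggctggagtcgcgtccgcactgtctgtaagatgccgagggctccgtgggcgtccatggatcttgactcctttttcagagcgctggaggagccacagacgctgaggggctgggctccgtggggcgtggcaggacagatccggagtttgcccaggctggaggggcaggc
Itga5: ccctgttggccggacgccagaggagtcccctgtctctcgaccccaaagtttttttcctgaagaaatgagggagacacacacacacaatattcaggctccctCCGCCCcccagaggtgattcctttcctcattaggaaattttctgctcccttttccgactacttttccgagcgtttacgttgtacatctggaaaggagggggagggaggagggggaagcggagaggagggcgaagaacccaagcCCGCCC
Windows were found for 23 of the 37 genes (26 windows). The search took 3 motifs on both strands: the nuclear receptor half-site AGGTCA, the GC box GGGCGG and the AP-1 site TGAGTCA, none of which holds another. AGGTCA was in 0 of the 26 windows, beside 14.0% of all 32851 windows. GGGCGG was in 9 of the 26, beside 32.7% of all windows. These belonged to 8 of the 23 genes, Itga3, Itga4, Itga5, Itgam, Itgb1, Itgb5, Lama5 and Lamb1. Members that rose and members that fell were both among them. TGAGTCA was in 1 of the 26, that of Itgax, beside 4.46%. A match is a stretch of letters and was not tested for binding.

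Itga10 was the most abundant integrin α subunit by mean TPM over all libraries. It had 254, 237, 223, 249 and 249 CPM in the euthyroid and 117, 179.8, 126, 139 and 146 CPM in the hypothyroid libraries. Hypothyroid replicate 2 was the highest of its group yet below every euthyroid library, and the gene fell 1.71-fold (log2 fold change -0.78 with SE 0.10, edgeR adjusted p = 1.09e-05). Of its exon bases, 33.5% are shared in GENCODE M21 with a gene model on the same strand that the table does not list, so the reads of both cannot be told apart. Itga11 fell 1.92-fold from 33.99 ± 2.68 CPM to 17.7 ± 2.05 CPM (log2 fold change -0.94, edgeR adjusted p = 8.04e-08). Cartilage markers, set beside Itga10, were lower in 6 of 9 and higher in 3, and summed to 45723 to 52388 CPM in euthyroid and 18106 to 19753 CPM in hypothyroid libraries. Col2a1 and Col9a1 made up most of that sum in both groups. The part of cartilage in the fall of Itga10 was not tested.

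Among the 8 subunits of receptors for arginine-glycine-aspartate (RGD) ligands such as fibronectin and vitronectin, 2 rose, 5 fell and 1 did not pass. Itga8, whose main ligand is nephronectin, had 178, 164, 149, 175 and 166 CPM in the euthyroid and 77.6, 69.8, 81.1, 65.7 and 81.04 CPM in the hypothyroid libraries. The groups did not overlap, and the gene fell 2.22-fold (log2 fold change -1.15 with SE 0.07, edgeR adjusted p = 6.19e-10). Npnt, the gene of nephronectin, had 887, 832, 884, 1002 and 861 CPM in the euthyroid and 195, 209.5, 205, 197 and 217 CPM in the hypothyroid libraries and fell 4.36-fold (log2 fold change -2.13 with SE 0.06, edgeR adjusted p = 2.06e-13). Receptor and ligand transcripts were thus both lower, the ligand by more. Itgav, the αv subunit that pairs with several β subunits, fell 1.87-fold from 344 ± 20.7 CPM to 185 ± 15.9 CPM (log2 fold change -0.90, edgeR adjusted p = 4.45e-09). Itga5, the fibronectin receptor subunit, rose 1.55-fold from 59.4 ± 2.79 CPM to 91.9 ± 10.8 CPM (log2 fold change 0.63, edgeR adjusted p = 1.43e-06).

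The β partners of αv other than β1 did not move as 1 group. Itgb5, the most abundant of these by TPM, rose 1.21-fold from 196 ± 7.25 CPM to 237 ± 32.3 CPM (log2 fold change 0.28, edgeR adjusted p = 0.00442), with hypothyroid replicate 5 inside the euthyroid range. Itgb3, found on osteoclasts, platelets and vessels, fell 1.66-fold from 11.3 ± 0.996 CPM to 6.78 ± 1.00 CPM, and Itgb6, an epithelial activator of TGF-β, fell 1.72-fold from 2.51 ± 0.153 CPM to 1.45 ± 0.32 CPM. Itgb8, which also activates TGF-β, fell 1.38-fold from 7.64 ± 1.01 CPM to 5.54 ± 0.484 CPM. The adjusted p of these 3 was 2.64e-05, 0.000669 and 0.00181 (edgeR), and Itgb8 lost its call with library sizes alone, on TPM with either pseudocount and on FPKM (adjusted p = 0.0952 to 0.152). Osteoclast markers, set beside Itgb3, were lower in 5 of 5 tested and summed to 163 to 239 CPM in euthyroid and 84.2 to 108 CPM in hypothyroid libraries. Itga2b, the platelet subunit, did not pass (log2 fold change -0.16, edgeR adjusted p = 0.252), at 4.78 and 4.29 CPM. Platelet markers summed to 23.5 to 28.8 CPM in euthyroid and 27.00 to 35.8 CPM in hypothyroid libraries. Of the 3 platelet markers tested, Pf4 rose 2.61-fold, Gp1bb fell 3.60-fold and 1 did not pass.

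Itga4 and Itga9, related subunits that bind VCAM-1, fibronectin and tenascin, both rose. Itga9 went from 54.4 ± 3.67 CPM to 102 ± 8.21 CPM (1.87-fold, log2 fold change 0.90, edgeR adjusted p = 5.31e-09) and Itga4 from 31.99 ± 2.25 CPM to 47.8 ± 3.79 CPM (1.49-fold, log2 fold change 0.58, edgeR adjusted p = 1.33e-06), without overlap between the groups. For Itga4, 8.04% of exon bases are shared with Cerkl on the other strand, and whether the counting used strand is not given in the sources used here. Itgb7, a lymphocyte subunit that pairs with α4, was near the limit of detection, with 99 and 77 counts over the 5 libraries of each group. Its log2 fold change was -0.59 (edgeR adjusted p = 0.0308), and it lost its call with library sizes alone (adjusted p = 0.202), upper quartile factors (0.0709) and DESeq2 (0.0741), and without euthyroid replicate 3, 4 or 5 or hypothyroid replicate 1 or 2 (0.0534 to 0.0792).

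Of the 6 integrins of white blood cells, 3 could be tested and 1 passed. Itgal, the LFA-1 subunit, rose 1.29-fold from 3.54 ± 0.689 CPM to 4.58 ± 0.507 CPM (edgeR adjusted p = 0.0321), a call lost without euthyroid replicate 2, 3, 4 or 5 or hypothyroid replicate 1 or 5 (0.0519 to 0.0995) and with DESeq2 (0.0600). Itgb2, the β2 subunit, and Itgam, the CD11b subunit of myeloid cells, did not pass (log2 fold changes 0.27 and 0.024, edgeR adjusted p = 0.0934 and 0.859), at 4.51 and 11.7 CPM on average in the euthyroid group. With library sizes alone and on FPKM both were higher (adjusted p = 0.00276 and 0.0266, and 0.00229 and 0.0456). Itgb2 was also higher with upper quartile factors (0.0233), on TPM (0.00471 and 0.00557) and without euthyroid replicate 3 (0.0402). Of the exon bases of Itgam, 68.7% are shared with a same-strand gene model that the table does not list. Itgax had 28 and 26, Itgae 20 and 25, and Itgad 1 and 1 counts over the euthyroid and hypothyroid libraries, too few to test. Macrophage markers were higher in 8 of 10, lower in 1 and not passed in 1, and summed to 261 to 289 CPM in euthyroid and 377 to 491 CPM in hypothyroid libraries. Granulocyte and T or NK cell markers were lower in 1 of 6 and 1 of 3 tested, higher in 0 and 1, and summed to at most 90.3 and 9.75 CPM in any library.

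Itgb1, the β1 subunit that most of the α subunits above need as partner, was the most abundant integrin gene by mean TPM. It had 735, 699, 758, 760.0 and 756 CPM in the euthyroid and 621, 616, 658, 585 and 642 CPM in the hypothyroid libraries. The groups did not overlap under TMM scaling, where it fell 1.19-fold (log2 fold change -0.25 with SE 0.05, edgeR adjusted p = 0.000197). With library sizes alone the difference was 0.018 (adjusted p = 0.691), and by TPM the means were 403 and 397, so no direction is given. Within the β subunits, which does not depend on scaling, the share of Itgb1 fell from 69.4% ± 0.856 to 61.2% ± 3.64 and that of Itgb5 rose from 27.3% ± 0.675 to 34.9% ± 3.63 of TPM. Itgb4 rose from 0.508% ± 0.0501 to 1.63% ± 0.247 (each exact permutation p = 0.00794, adjusted p = 0.0101 over the 19 shares).

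Partner genes were taken from 5 lists set by function. Calls in these lists and in the marker lists are to be read beside all genes tested. Of those, 37.7% were higher and 34.1% lower. In the integrin adhesion complex, which couples integrin tails to actin, 6 of 28 were higher, 16 lower and 6 did not pass, with a median log2 fold change of -0.19. With library sizes alone 12 were higher and 7 lower, so that the balance of this list is not fixed. The tensins, adaptors that bind the β tail, differed among themselves. Tns4, an epithelial tensin, had 32.3, 29.5, 23.7, 30.1 and 26.2 CPM in the euthyroid and 0.421, 0.238, 0.193, 0.554 and 0.518 CPM in the hypothyroid libraries. It was close to absent in every hypothyroid library and 72.2-fold lower (log2 fold change -6.17 with SE 0.17, edgeR adjusted p = 3.03e-13). It passed the count filter only through the euthyroid libraries, so its call, like that of Lama1, is a description. Tns1 fell 2.07-fold from 544 ± 31.4 CPM to 263 ± 16.97 CPM, Tns3 rose 1.46-fold from 102 ± 3.64 CPM to 149 ± 10.3 CPM, and the kindlin gene Fermt2, whose product activates integrins, fell 1.37-fold from 192 ± 6.52 CPM to 139.5 ± 7.93 CPM (edgeR adjusted p = 2.41e-10, 1.28e-07 and 3.74e-07).

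Basement membrane proteins that bind laminin or lie beside it were mostly higher, 11 of 14, with 2 lower and 1 not passed (median 0.66). Nid2, a nidogen that links laminin to type IV collagen, had 134, 148, 115, 119 and 137 CPM in the euthyroid and 369, 348, 369, 321 and 367 CPM in the hypothyroid libraries. It rose 2.72-fold (log2 fold change 1.44 with SE 0.07, edgeR adjusted p = 6.67e-11) without overlap, in the same libraries in which the γ1 chain that nidogen binds was lower. Smoc2 and Smoc1, calcium-binding matrix proteins, rose 13.7-fold from 12.4 ± 1.72 CPM to 170.2 ± 23.2 CPM and 2.24-fold from 93.3 ± 1.38 CPM to 209 ± 9.93 CPM (edgeR adjusted p = 2.58e-11 and 4.64e-12). Egfl6, a matrix protein with epidermal growth factor repeats, rose 6.31-fold from 4.62 ± 0.973 CPM to 29.3 ± 3.82 CPM (edgeR adjusted p = 2.84e-10).

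Receptors of laminin other than integrins, with the enzymes that add their sugars, were higher in 5, lower in 8 and not passed in 1 of 14 tested (median -0.27), and with library sizes alone 4 were lower. Bcam, the Lutheran glycoprotein and a receptor for the α5 chain, had 829, 777, 722, 807 and 737 CPM in the euthyroid and 107, 113, 109.9, 106 and 106 CPM in the hypothyroid libraries. It fell 7.15-fold (log2 fold change -2.84 with SE 0.05, edgeR adjusted p = 2.67e-15), by more than Lama5, which fell 1.4-fold. The sarcoglycan genes Sgcd and Sgce rose 2.06-fold from 29.8 ± 2.32 CPM to 61.3 ± 7.15 CPM and 1.7-fold from 33.1 ± 3.03 CPM to 56.2 ± 1.39 CPM (edgeR adjusted p = 1.88e-08 and 2.34e-08).

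Of the other hemidesmosome genes, 4 were tested and 2 rose, 1 fell and 1 did not pass (median 0.12). Plec, the plectin gene, rose 1.33-fold from 52.6 ± 4.23 CPM to 69.8 ± 7.86 CPM, and the tetraspanin gene Cd151 fell 1.38-fold from 116 ± 3.94 CPM to 83.8 ± 4.49 CPM (edgeR adjusted p = 0.000201 and 2.69e-07). Col17a1, the gene of type XVII collagen, was the other one called, at 0.474 ± 0.114 CPM to 1.17 ± 0.274 CPM. It passed the count filter only through the hypothyroid libraries, so its call too is a description. Dst, the dystonin gene, had a log2 fold change of -0.17 (edgeR adjusted p = 0.0551), which passed without euthyroid replicate 2 (0.00409), hypothyroid replicate 2 (0.0250) or hypothyroid replicate 5 (0.0499). Dst also passed with DESeq2 (0.0348). Krt5 and Krt14, keratins of basal skin cells, were too low to test.

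Integrin ligands were higher in 7, lower in 5 and not passed in 2 of 14 tested (median 0.34), and with library sizes alone 3 were lower. Postn, the gene of periostin, a ligand of αv integrins, had 28.8, 27.9, 28.4, 27.3 and 35.1 CPM in the euthyroid and 322, 287, 272, 255 and 328 CPM in the hypothyroid libraries, 9.92-fold higher (log2 fold change 3.31 with SE 0.09, edgeR adjusted p = 5.27e-13). Vtn, the vitronectin gene, fell 2.74-fold from 31.9 ± 3.76 CPM to 11.6 ± 2.04 CPM and Mfge8, which bridges dying cells to αv integrins, rose 1.46-fold from 69.04 ± 5.65 CPM to 101 ± 8.24 CPM (edgeR adjusted p = 3.3e-08 and 3.08e-06). The ligands of αv thus went both ways, while Itgav itself was lower.

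**Figure D4:**
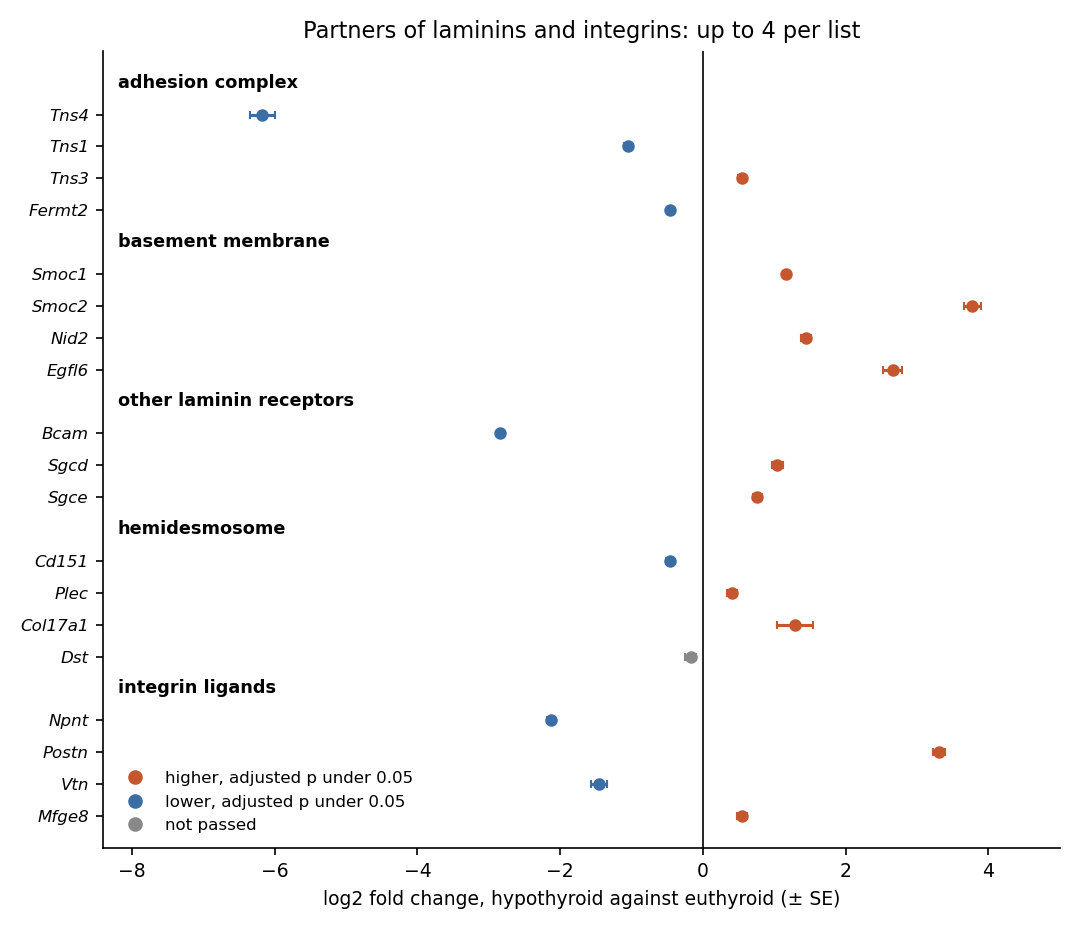
Log2 fold change with its approximate standard error for up to 4 genes with the smallest adjusted p in each of the 5 partner lists. The 4 basement membrane genes were all higher, Tns4 was the lowest at -6.17 and Postn and Smoc2 exceeded 3 on the log2 scale.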

How the data were processed

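The data were bulk RNA-seq of 10 libraries, 5 a group. The deposited table gave, per gene and library, an estimated count, an FPKM and a TPM value, the last 2 per gene length. Per the submitters' processing notes, the authors used HISAT2 2.0.4, Bowtie2 2.2.5 and RSEM 1.2.12 with GRCm38.p6; the annotation behind the expected counts, TPM and FPKM is not given in the sources used here. The strand of the libraries is not given there either. Another 10 columns, of scaled counts per library, were not used.

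Estimated counts were rounded and fitted with edgeR 4.0.16 in R 4.3.3 (quasi-likelihood test, TMM factors, filterByExpr at a minimum count of 10, Benjamini-Hochberg adjustment over 14862 genes). CPM values use the TMM library sizes. The SE is the log2 fold change over the root of the F statistic. Chain shares of the deposited TPM were compared by exact permutation over 252 splits. The scripts were tested on simulated data in which few genes changed, as many up as down. That test did not bear on the choice of scaling. Libraries of a group differed beyond counting noise in all 20 pairs, so none was a copy or a second sequencing of another. Whether any were separate libraries from the same RNA cannot be told in this way. The alternatives were other scalings and filters, DESeq2 1.42.0, limma 3.58.1 on log2(TPM + 1), log2(TPM + 0.1) and log2(FPKM + 1), a replicate block and leaving out each library; those for partner lists were in part chosen after seeing the data.

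The members, the partner and marker lists and the tests were chosen with earlier results of these data known. Every member was named, apart from a gene that is not reported here, nor is one of the partner genes. Values in each library were given for members with adjusted p under 0.05, at least 2-fold change and a mean of at least 1 CPM in a group, and for the most abundant member of each class by TPM. Of each partner list the 4 genes with the smallest adjusted p were named. Otor, Coch, Col2a1, Col9a1, Matn3, Cnmd, Krt5, Krt14, Slc26a5, Ocm, Strc, Bglap, Mepe, Tyrp1, Pf4 and Gp1bb were named outside that rule. Promoter windows came from RefSeq, exon overlaps from GENCODE.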

Additional observations from a re-analysis of the deposited data

Results flagged for a closer look

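In 154 groups of 5 libraries (tested members, named partner genes, chain shares and class sums), 9 had 1 library set apart from the other 4. Set apart means a gap to the nearest other library of more than 0.71 of the range of its group. Chance gives about 5% of groups. Of the values per gene, Tns3 was highest in hypothyroid replicate 2, at 167 CPM against 141 to 147 in the others. Plec was highest in euthyroid replicate 3, at 60.04 CPM against 49.7 to 51.8. Dst was lowest in euthyroid replicate 2, at 63.2 CPM against 76.9 to 81.3. Postn was highest in euthyroid replicate 5, at 35.1 CPM against 27.3 to 28.8. Mfge8 was lowest in hypothyroid replicate 5, at 86.3 CPM against 103 to 107.

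Among the shares, that of Lama5 was highest in hypothyroid replicate 2, at 18.5% of the α chain TPM against 16.0% to 16.7%. Hypothyroid replicate 4 had the lowest share of Lamb1, 65.1% against 69.6% to 71.3%, and the highest of Lamb2, 34.3% against 28.4% to 29.9%. The same library had the highest summed integrin β TPM, 677 against 635 to 645. None of the 34 tested members had a library set apart in CPM by that limit. Lamb1 came near it in hypothyroid replicate 4, at 409.8 CPM against 516 to 564 in the others of its group.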

How the results depend on the processing

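Over the alternatives in which they were tested, at most 19, 25 of the 34 tested members kept their call and direction, as did 19 of 20 named partner genes; only 32 members were tested with a minimum count of 50, 33 on TPM and 29 on FPKM. Of the chain shares 15 of 19 did. With library sizes alone, log2(TPM + 1), log2(FPKM + 1) and log2(TPM + 0.1), in this order, adhesion complex genes were higher in 12 each time and lower in 7, 8, 6 and 8, non-integrin laminin receptors were lower in 4, 4, 3 and 4, and integrin ligands were lower in 3 each time. On FPKM 2 laminin genes were higher, Lama4 and Lamb1, since Lama1 and Lama3 were not tested there. Hemidesmosome genes were higher in 1 with a minimum count of 50, on TPM with either pseudocount and on FPKM, where Col17a1 was not tested, and lower in 2 with DESeq2 and without euthyroid replicate 2 or hypothyroid replicate 2 or 5. Under the same 4 scalings in order, Itga2b became 0.11, 0.053, 0.063 and 0.068, Dst 0.094, 0.041, 0.069 and 0.045, and Itga6 0.25, 0.21, 0.24 and 0.21 on the log2 scale; Itga6 was 0.095 with upper quartile factors and, with 1 library left out, ran from -0.038 to 0.0098, positive without hypothyroid replicate 2 or 4. Itgb1 became 0.018 with library sizes and 0.017 on FPKM. Itgam was -0.00147 with DESeq2 and, with 1 library left out, ran from -0.060 to 0.086, negative without euthyroid replicate 1 or 2 or hypothyroid replicate 3 or 5. Share differences with 1 library left out, in percentage points, ran from 0.259 to 0.394 for Lama3, -0.0628 to -0.0415 for Itgb7, 0.117 to 0.192 for Itgb2 and -3.09 to -1.70 for Lamc1; calls were lost for Lama3 without 7 and for Itgb7 without 8 of the 10 libraries and for Itgb2 without hypothyroid replicate 5, and gained for Lamc1 without euthyroid replicate 2. Apart from genes that an alternative left out, the cause of these changes was not tested. Lama1 was 1.84 on log2(TPM + 1) and 3.86 on log2(TPM + 0.1), since a pseudocount shrinks a fold against low values. With the replicate number as a block 11 members were higher and 19 lower and no call changed. Same-numbered libraries correlated from -0.08 to 0.15, and 1 of 5 numbers had its best partner in both directions. These values show no clear pairing by number but cannot exclude one. Of all calls 52.5% were higher, against 74.7% with library sizes alone, 71.3% on log2(TPM + 1) and 74.0% on log2(FPKM + 1). Itgae, Itgax and Itgad, with at most 28 counts over a group, were left out by the filter.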
